A study of Mus musculus with 6 samples.

Results

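Beta-catenin (Ctnnb1) and 9 genes that transmit or restrain the canonical Wnt signal were followed in regulatory T (Treg) cells with and without miR-142. The 10 genes were Ctnnb1, Apc, Axin1, Axin2, Gsk3b, Lrp6, Znrf3, Fzd7, Csnk1a1 and Tcf7l2. They were chosen by symbol from the 24421 genes of the count matrix, and each symbol matched 1 row. RNA-seq libraries were made from splenic CD4+YFP+ Treg cells of female C57BL/6 mice aged 8 to 11 weeks, of which 3 were Foxp3Cre (WT) and 3 were Foxp3Cre miR-142fl/fl (KO). In both groups the Foxp3 locus drives a fusion of YFP and Cre, which marks the sorted cells and, in KO mice only, acts on the floxed miR-142 gene. By these genotypes, WT cells carried the Cre without the floxed miR-142 alleles. Each library came from 1 mouse, and the cells were sequenced without treatment. The study reports that mice of the KO genotype developed a fatal systemic autoimmune disease and had fewer splenic Treg cells. It cautions that the inflammation in these mice could itself alter Treg transcripts. Effects of the genotype and of the disease cannot be told apart in these libraries. The comparison asked how the transcripts of the Wnt pathway differed between KO and WT Treg cells.

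Beta-catenin is a component of adherens junctions and the transcriptional coactivator of the canonical Wnt pathway. In the absence of Wnt, a destruction complex built on the scaffolds APC and Axin holds beta-catenin while the kinases CK1 alpha and GSK3 phosphorylate it, after which it is ubiquitinated and degraded. When Wnt binds a Frizzled receptor and an LRP5 or LRP6 coreceptor, the complex is inhibited, and beta-catenin accumulates and works with TCF and LEF factors in the nucleus. In T cells the main partners are TCF1, encoded by Tcf7, and LEF1. Much of this control acts on the beta-catenin protein, which an RNA count does not measure.

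The miR-142 hairpin gives a mature RNA from each arm, and both are shown because the floxed locus encodes them. The sequences were taken from RefSeq (GRCm38.p6, chromosome 11, plus strand), at positions 87756903 to 87756925 for the 3p arm and 87756867 to 87756887 for the 5p arm. Capitals mark the seed, bases 2 to 8.
miR-142a-3p: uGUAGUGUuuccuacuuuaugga
miR-142a-5p: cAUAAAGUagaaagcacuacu
The longest 3′ UTR of each gene in GENCODE vM21 (GRCm38) was searched, on the transcript strand, for the 7-mers ACACTAC and AACACTA, complementary to bases 2 to 8 and 3 to 9 of the 3p arm, and for ACTTTAT, complementary to bases 2 to 8 of the 5p arm. The first and second words can overlap, as they did in Apc. A 3p word was present in 4 of the 10 genes (Ctnnb1, Apc, Gsk3b and Csnk1a1). A 5p word was present in those 4 and in Lrp6, Znrf3 and Fzd7, which makes 7 of 10. The longest UTRs of Axin1, Axin2 and Tcf7l2 held none of the words, though another annotated UTR of Tcf7l2 held a 5p word.

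Ctnnb1 carried both kinds of word within its 3′ UTR of 990 bases, in exon 15 of 15. AACACTA started at base 664 after the stop codon and was followed by an A, and ACTTTAT started at base 817. These windows are printed because Ctnnb1 was the 1 gene of the 10 that passed the test, with the words of Gsk3b, Lrp6, Znrf3 and Fzd7 for comparison. They come from GENCODE vM21 transcripts and are given 5′ to 3′ on the gene's strand. Capitals mark the word and, where present, the A that follows it.
Ctnnb1 3p, bases 3 to 9 (chr9:120960171-120960197, plus strand): aatggtgtagAACACTAAttcataatc
Ctnnb1 5p (chr9:120960324-120960350, plus strand): ttgaacaaaaACTTTATcggggatacg
Gsk3b 3p, bases 2 to 8 (chr16:38244659-38244685, plus strand): gttcctatttACACTACtgattgttct
Gsk3b 5p (chr16:38241835-38241861, plus strand): gtatctgctgACTTTATAggaaaactg
Lrp6 5p (chr6:134447759-134447785, minus strand): agcccttataACTTTATAgaaacaatt
Znrf3 5p (chr11:5278991-5279017, minus strand): gcctaggccaACTTTATtggagacagt
Fzd7 5p (chr1:59486902-59486928, plus strand): atgaagccccACTTTATcacatgtaca
Among the 11123 tested genes with an annotated 3′ UTR, 14.01% held a 3p word and 15.82% a 5p word. Genes with a 3p word had longer UTRs, with a median of 2456 bases against 910 for genes with none of the words. A match to these letters does not show that the miRNA binds there.

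**Figure D1:**
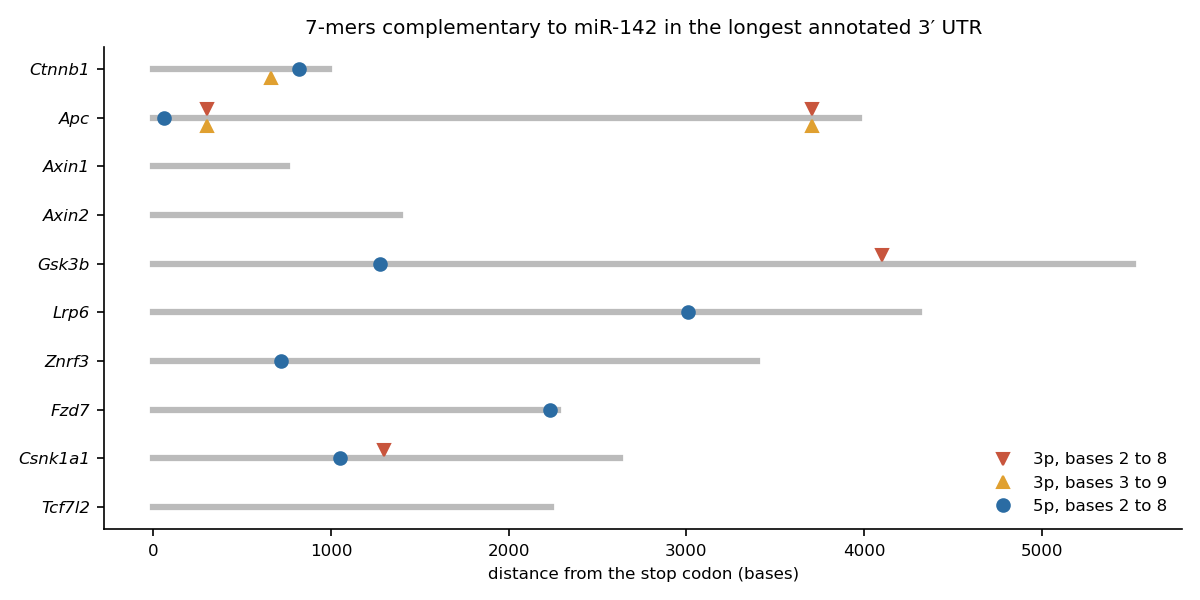
Positions of the 7-mers along the longest annotated 3′ UTR of each of the 10 genes. The x axis is the distance from the stop codon in bases, grey bars are UTRs, and triangles and circles mark the 3p and 5p words. Ctnnb1 holds a 3p word and a 5p word within 990 bases, Gsk3b holds the same kinds within 5515 bases, and Axin1, Axin2 and Tcf7l2 hold none.

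Total counts ranged from 13883069 to 24042994 per library, and 3 counts, taken as the floor, corresponded to 0.123 to 0.227 CPM (counts scaled to library size with TMM factors). These floors cover counting error only. Mir142b, annotated antisense over the floxed gene, had 9.05, 4.14 and 5.81 CPM in WT and 0.389, 0.379 and 0.342 CPM in KO, while Mir142 itself had 0 counts in all 6 libraries. The edgeR quasi-likelihood F (QLF) test was applied to the 11658 genes above 1 CPM in at least 3 libraries, with a Benjamini-Hochberg false discovery rate (FDR) under 0.05 as the threshold. It called 1350 genes (11.6%) higher and 847 genes (7.27%) lower in KO, whereas with library size as the sole scaling it called 1064 higher and 1201 lower. For 22.2% of tested genes the lowest KO library exceeded the highest WT library, and for 18.8% the order was the opposite. The Treg and T cell markers Foxp3, Il2ra, Ctla4, Ikzf2, Tnfrsf18, Cd4 and Cd3e summed to 4816 to 5549 CPM in WT and 6761 to 7688 CPM in KO. Il2ra had 725.7 to 798.9 CPM in WT and 2258 to 3073 CPM in KO. Foxp3 and Tnfrsf18 were also higher in every KO library than in any WT library, Cd4 and Cd3e were lower, and Ctla4 and Ikzf2 overlapped. KO replicate 1 stood apart in markers of other cells. The 8 monocyte and macrophage genes were all highest there and summed to 2383 CPM against 7.39 to 68.6 CPM elsewhere. All 7 B cell genes were highest there, with 2303 CPM against 59.9 to 284.4 CPM, as were 8 of 9 neutrophil genes, with 839.6 CPM against 0.277 to 40.5 CPM. Most of the B cell sum came from Cd74, with 2097, 194 and 272.8 CPM in KO replicates 1, 2 and 3 and 44.7 to 51.5 CPM in WT. The 4 CD8 and NK cell genes summed to 37.6 CPM against 13.7 to 17.9 CPM, and the 6 erythroid genes, of which Hba-a1, Hbb-bs and Hbb-bt were at 0 in all libraries, to 17.5 CPM against 0.775 to 13.8 CPM. The 5 stromal and endothelial genes summed to 232.7 CPM there and 221.1 to 304.3 CPM elsewhere, nearly all from Pecam1. Where that library led a called difference described below, the value without it is given too if the gene was still tested. In bulk RNA, a change in the share of cells that hold a transcript and a change in its amount per cell cannot be told apart.

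Of the 10 genes, Ctnnb1 alone passed the test, and it was higher in KO Treg cells. With the QLF test, 1 of 10 was called higher, beside 11.6% of all tested genes, and 0 of 10 was called lower, beside 7.27%. At an unadjusted p under 0.05 the numbers were 4 higher and 0 lower, beside 19.7% and 15.1% of all tested genes. DESeq2 called 3 higher and 0 lower, beside 14.3% and 10.3%. The median log2 fold change was 0.14 over the 10 genes and 0.016 over all tested genes. In 4 of 10 genes (Ctnnb1, Apc, Fzd7 and Tcf7l2) the KO libraries all exceeded the WT libraries, beside 22.2% of all genes, and in 0 of 10 were they all below, beside 18.8%. All 10 passed the filter on low counts. Tcf7l2 exceeded 1 CPM in 1 WT library and Fzd7 in 2, so both met the requirement of 3 libraries through the KO libraries, in which they were higher. With 3 mice in each group, an exact two-sided permutation test cannot give a p below 0.1, so the calls depend on the spread that the model shares among genes.

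**Figure D2:**
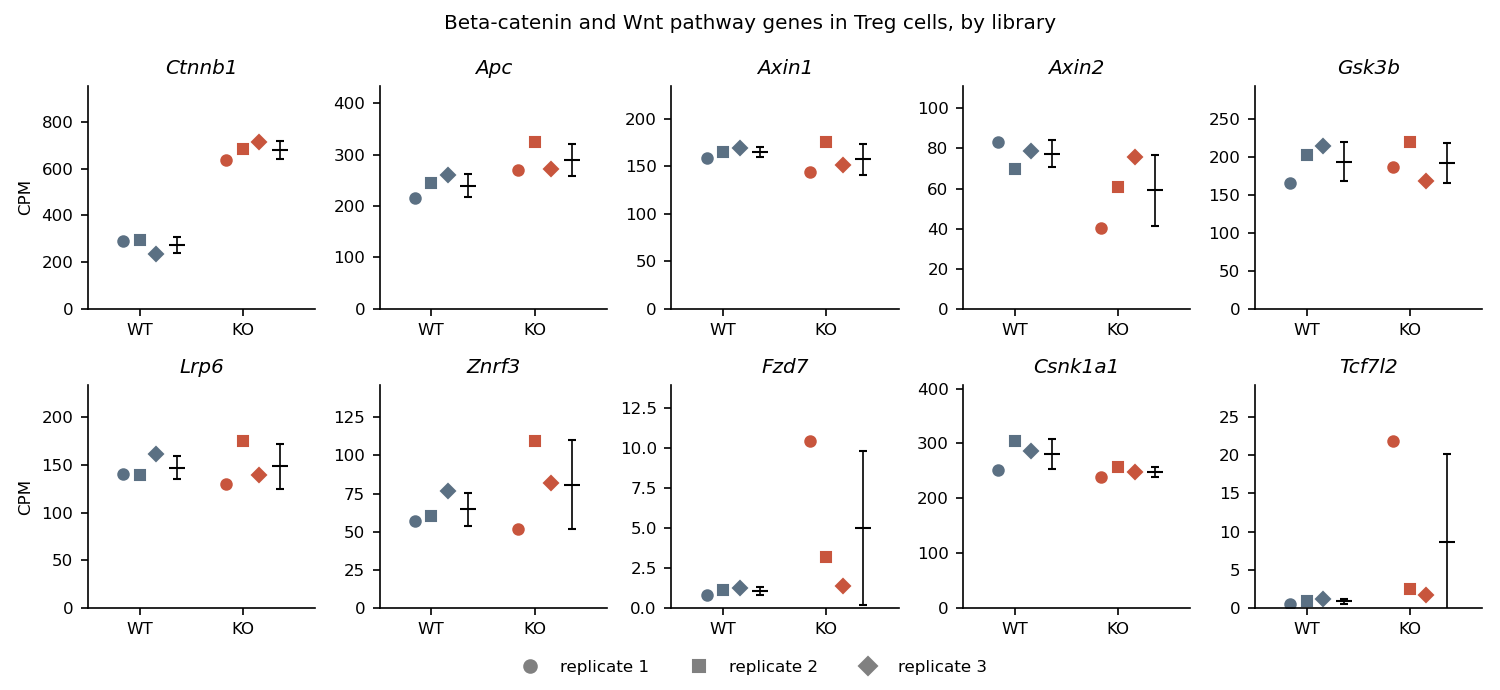
Expression of the 10 genes by library. The y axes are CPM from 0, symbols are single libraries (circle, square and diamond for replicates 1, 2 and 3), and bars are mean ± SD of 3 libraries per group, with the lower end of the Tcf7l2 KO bar running below the axis. Ctnnb1 separates the groups, from 236.1 to 294.9 CPM in WT and 640.2 to 716.8 CPM in KO, whereas Fzd7 and Tcf7l2 are led by KO replicate 1.

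Ctnnb1 had 289.0, 294.9 and 236.1 CPM in WT replicates 1, 2 and 3, and 640.2, 687.2 and 716.8 CPM in the KO replicates. The 3 KO libraries lay close together, and the lowest of them was above the highest WT library by more than the spread within either group. The WT mean was 273.4 ± 32.4 CPM and the KO mean 681.4 ± 38.6 CPM (SD, n = 3 per group). This was a 2.49-fold difference (95% CI 2.07 to 3.00), with a log2 fold change of 1.32 (SE 0.11) and an FDR of 0.001001 in the QLF test. The gene lies at chromosome 9, 120929216 to 120960507, plus strand (GRCm38). Ctnnb1 was called under every alternative tried, and the log2 fold change stayed between 1.22 and 1.37 when any 1 library was left out, with an FDR from 0.000505 to 0.0111. Without KO replicate 1 it was 1.34. The study's own plot of these libraries labels Ctnnb1 as a miR-142 target, so its direction here is not independent evidence.

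Per kilobase of the union of annotated exons, Ctnnb1 had the highest value of the 10 genes in WT cells, at 52.7 ± 6.24 CPM per kb. Axin1 followed at 43.0 ± 1.39, Csnk1a1 at 26.7 ± 2.56, Gsk3b at 19.7 ± 2.63, Apc at 14.9 ± 1.43 and Axin2 at 14.1 ± 1.24 CPM per kb. Lrp6 stood at 10.8 ± 0.89, Znrf3 at 8.18 ± 1.33, Fzd7 at 0.237 ± 0.054 and Tcf7l2 at 0.102 ± 0.038 CPM per kb. Of the neighbours in this order, only Apc and Axin2 had WT libraries that overlapped. The order depends on the exon lengths used, and the transcript forms present in these cells were not determined. Before this scaling Csnk1a1 had a higher WT mean than Ctnnb1, at 280.6 against 273.4 CPM. Their exon unions were 10502 and 5192 bases, and the SDs do not cover error in these lengths. In KO cells Ctnnb1 reached 131 ± 7.44 CPM per kb and Axin1, the next, stood at 41.1 ± 4.38 CPM per kb.

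The profile of Ctnnb1 over the 6 libraries was compared with that of every tested gene by the root mean square difference of centred log2 CPM, a measure in which a smaller value is a closer likeness. The 5 closest genes were Tmem59 (0.0594), Bod1 (0.0702), Serinc3 (0.0880), Fam8a1 (0.0928) and Ncoa7 (0.103). Tmem59 had 119, 119.8 and 105.6 CPM in WT and 272.4, 286.2 and 280.6 CPM in KO. None of the 5 is on the Wnt list described below. They were picked for their likeness, so no test was made of it.

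The genes of the destruction complex among the 10 were Apc, Axin1, Axin2, Gsk3b and Csnk1a1, and none passed the test. Apc, the scaffold lost in many intestinal tumours (chromosome 18, 34220924 to 34322552, plus strand), had 215.2, 244.1 and 260.7 CPM in WT and 270.6, 325.5 and 273.0 CPM in KO. The groups did not overlap, but the gap between the highest WT and the lowest KO library was smaller than the spread within either group. The KO level was 1.21-fold the WT level (95% CI 1.003 to 1.45), with an unadjusted p of 0.047 and an FDR of 0.138 in the QLF test. Its UTR holds both 3p words, overlapping, at 2 places, and a 5p word at base 58 after the stop codon. Under the alternatives its FDR ranged from 0.12 to 0.383.

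Axin1, the scaffold of the complex (chromosome 17, 26138688 to 26195811, plus strand), had 159.0, 165.6 and 169.5 CPM in WT and 143.8, 176.0 and 151.9 CPM in KO. The KO libraries lay on both sides of the WT libraries, with a fold of 0.955 (95% CI 0.815 to 1.12, FDR = 0.667 in the QLF test). Axin2, a paralog of Axin1 that beta-catenin and TCF induce in many tissues (chromosome 11, 108920349 to 108950783, plus strand), had 83.4, 70.0 and 78.9 CPM in WT and 40.5, 60.8 and 75.9 CPM in KO. KO replicate 3 lay within the WT range, and KO replicate 1 was the lowest library at 0.592 of the mean of the other KO libraries. The fold was 0.762 (95% CI 0.539 to 1.08, FDR = 0.235 in the QLF test). Without KO replicate 1 the log2 fold change moved from -0.39 to -0.19, and the part of that library in the difference was not tested.

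Gsk3b, which encodes a kinase that phosphorylates beta-catenin (chromosome 16, 38089001 to 38246084, plus strand), had 165.2, 202.2 and 215.0 CPM in WT and 187.6, 220.4 and 168.3 CPM in KO. The groups overlapped across nearly their whole range, with a fold of 0.989 (95% CI 0.791 to 1.24, FDR = 0.949 in the QLF test). Csnk1a1, which encodes the CK1 alpha kinase that primes beta-catenin for GSK3 (chromosome 18, 61555274 to 61590061, plus strand), had 251.6, 304.5 and 285.8 CPM in WT and 239.4, 256.1 and 248.1 CPM in KO. KO replicate 2 lay above the lowest WT library, and the fold was 0.883 (95% CI 0.756 to 1.03, FDR = 0.228 in the QLF test). For Axin1, Gsk3b and Csnk1a1 the intervals hold no change as large as 1.5-fold in either direction. Gsk3b and Csnk1a1 carry a 3p word as Apc and Ctnnb1 do, and the 4 genes had log2 fold changes of -0.02, -0.18, 0.27 and 1.32 in the order Gsk3b, Csnk1a1, Apc and Ctnnb1. Over the 1558 tested genes with a 3p word the median log2 fold change was 0.17, and the test called 338 (21.69%) higher and 72 lower. Where a UTR held none of the words (8243 genes) the median was 0.0029, and 843 (10.23%) passed as higher and 631 as lower. Those UTRs were shorter, with a median of 910 bases against 2456 with a 3p word and 2422 with a 5p word. Over the 1760 genes with a 5p word, which the 4 genes named here also carry, the median log2 fold change was 0.0032. Of the 1760, 232 (13.18%) passed as higher and 112 as lower.

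Lrp6, Znrf3 and Fzd7 act at the cell surface, and none of them passed the test. Lrp6, the coreceptor that passes the signal to Axin (chromosome 6, 134446476 to 134566965, minus strand), had 140.8, 139.4 and 161.1 CPM in WT and 130.4, 175.3 and 139.9 CPM in KO. The KO range enclosed the WT range, with a fold of 1.01 (95% CI 0.819 to 1.24, FDR = 0.952 in the QLF test). Znrf3, an E3 ligase that removes Frizzled receptors from the membrane (chromosome 11, 5276324 to 5444847, minus strand), had 57.1, 60.0 and 76.6 CPM in WT and 51.6, 109.5 and 81.6 CPM in KO. KO replicate 1 was the lowest of the 6 libraries and the other 2 KO libraries lay above all WT libraries. The fold was 1.25 (95% CI 0.822 to 1.91, FDR = 0.416 in the QLF test), and without KO replicate 1 the log2 fold change moved from 0.32 to 0.55 (FDR = 0.0544). The part of that library was not tested.

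Fzd7, a Frizzled receptor (chromosome 1, 59482424 to 59486955, plus strand), had 13, 28 and 23 counts in WT and 188, 42 and 20 counts in KO, or 0.801, 1.15 and 1.27 CPM against 10.4, 3.18 and 1.37 CPM. All KO libraries lay above the WT libraries in CPM, but KO replicate 3 by only a little, and KO replicate 1 was 4.59 times the mean of the other KO libraries. The fitted fold was 4.65 (95% CI 1.48 to 14.6, log2 2.22, SE 0.70), with an FDR of 0.0677 in the QLF test. Tcf7l2, which encodes the TCF4 factor prominent in the gut epithelium (chromosome 19, 55741820 to 55933654, plus strand), had the same shape. It had 9, 22 and 22 counts in WT and 394, 33 and 24 counts in KO, or 0.554, 0.902 and 1.22 CPM against 21.9, 2.50 and 1.64 CPM. KO replicate 1 was 10.6 times the mean of the other KO libraries. The fitted fold was 9.69 (95% CI 1.86 to 50.4, log2 3.28, SE 1.02), with an FDR of 0.0634 in the QLF test. Both genes entered the test through their KO levels, and their folds and calls are conditional on that.

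DESeq2 called both genes higher, with an FDR of 0.00846 for Fzd7 and 0.00081 for Tcf7l2, as did the QLF test without KO replicate 3 (0.0287 and 0.0417). Tcf7l2 was also called without KO replicate 2 (0.0433). Without KO replicate 1 the log2 fold changes were 1.04 for Fzd7 (FDR = 0.126) and 1.18 for Tcf7l2 (FDR = 0.0747). The library in which both were highest was also the one that held the most monocyte, macrophage, neutrophil and B cell marker transcripts, and the part of those cells in the values of Fzd7 and Tcf7l2 was not tested. For Ctnnb1, Apc, Axin1, Gsk3b, Lrp6 and Csnk1a1, KO replicate 1 lay between 0.827 and 0.965 of the mean of the other KO libraries, and for Axin2 and Znrf3 at 0.592 and 0.540 of it.

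**Figure D3:**
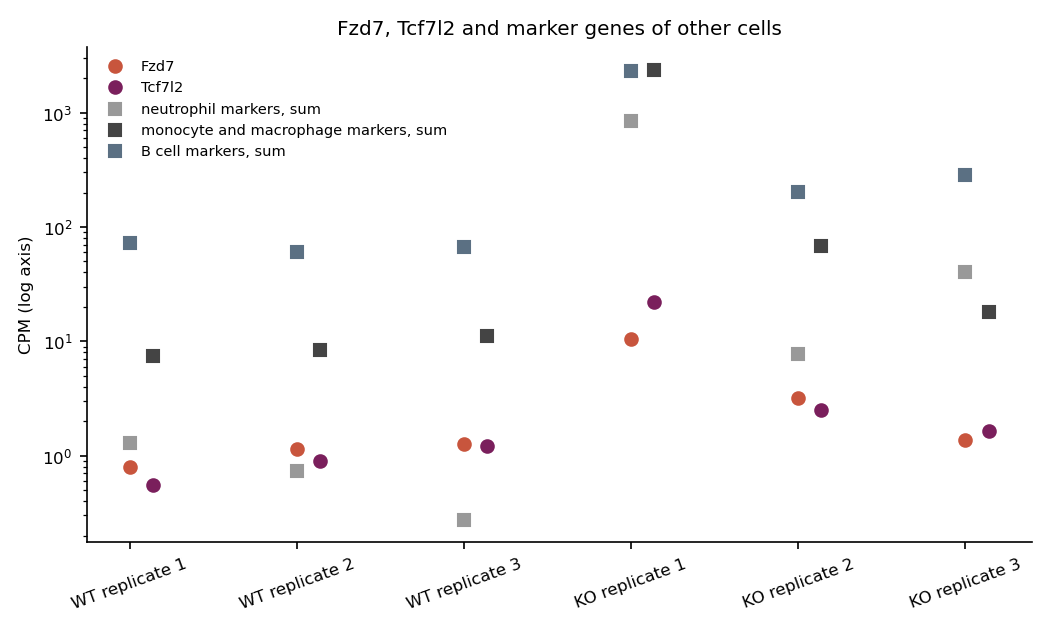
Fzd7, Tcf7l2 and the summed marker genes of other cells by library. The y axis is CPM on a log scale, circles are the 2 genes, and squares are summed CPM of the marker lists (9 genes for neutrophils, 8 for monocytes and macrophages, 7 for B cells). KO replicate 1 has the highest value in all 5 series, for example 21.9 CPM for Tcf7l2 against 2.50 CPM or less elsewhere.

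**Figure D4:**
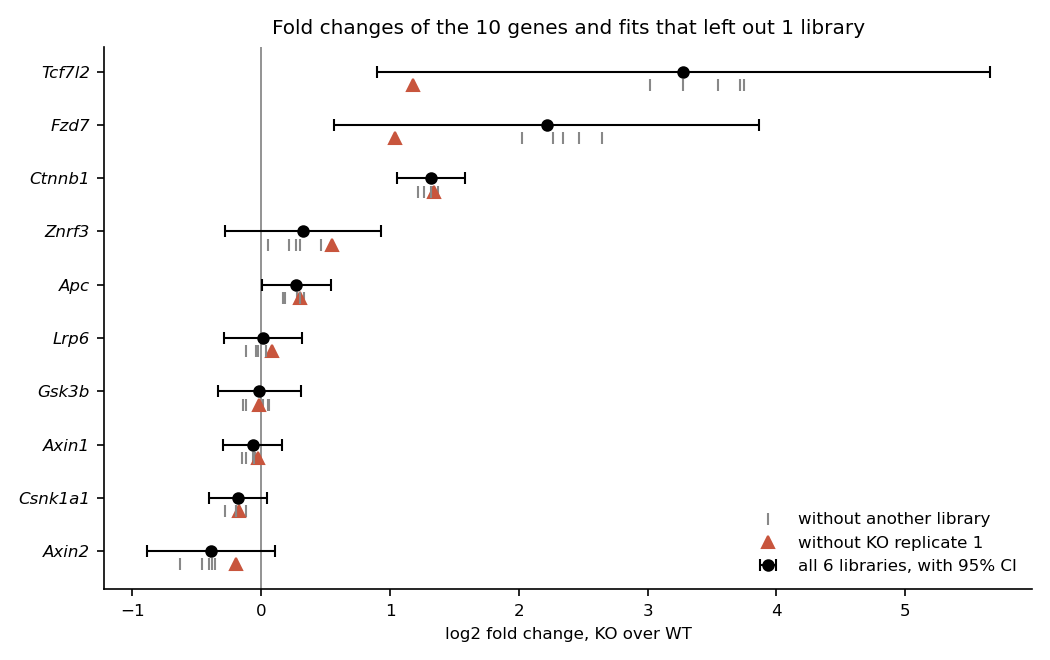
Fold changes of the 10 genes. The x axis is the log2 fold change of KO over WT, black points with bars are the fits to all 6 libraries with 95% confidence intervals, triangles are fits without KO replicate 1 and ticks are fits without each other library. Ctnnb1 stays between 1.22 and 1.37, while Tcf7l2 moves from 3.28 to 1.18 and Fzd7 from 2.22 to 1.04 without KO replicate 1.

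The 10 genes were set beside a wider list of 112 genes of Wnt signalling, grouped by role, of which 60 were tested and 16 had 0 counts in all libraries. Of the 60, 9 (15%) were called higher and 6 (10%) lower, beside 11.6% and 7.27% of all tested genes, and the median log2 fold change was -0.0085. Fzd10 and Dkk3, among those called higher, met the filter on low counts through the KO libraries. Of the 19 Wnt ligand genes 2 were tested, Wnt3 at 7.98 ± 0.75 CPM in WT and 8.19 ± 3.15 CPM in KO, and Wnt2b at 1.83 ± 0.29 and 1.64 ± 0.50 CPM. Neither was called by the QLF test or DESeq2, or had an unadjusted p under 0.05. The other 17 ligands did not exceed 1.39 CPM in any library, and the 5 R-spondin and other agonist genes did not exceed 1.94 CPM. Wls, the carrier needed for Wnt secretion, rose from 120.8 ± 8.03 CPM to 197.7 ± 10.5 CPM (log2 fold change 0.71, FDR = 0.00319 in the QLF test).

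Among the receptors, 8 of 19 genes were tested. The QLF test called 2 higher and 0 lower, beside 11.6% and 7.27% of all tested genes. Fzd6 had 3.20, 2.09 and 2.38 CPM in WT and 19.2, 19.8 and 14.1 CPM in KO. Its log2 fold change was 2.79 (FDR = 0.000996 in the QLF test). Unlike Fzd7, KO replicate 1 was within the range of the other KO libraries for Fzd6, and its log2 fold change without that library was 2.72. Fzd10 stood at 0.360 ± 0.073 CPM in WT cells and 2.47 ± 0.32 CPM in KO cells (log2 fold change 2.77, FDR = 0.00207). It passed the filter through the KO libraries alone and was not tested once any KO library was left out. Rnf43, the paralog of Znrf3, had 79.0, 73.5 and 88.1 CPM in WT and 18.6, 14.2 and 19.4 CPM in KO. It fell by 2.20 on the log2 scale (FDR = 0.000527 in the QLF test) and was called in every fit, and it lies 21.3 kb from the floxed Mir142 gene. Whether that position bears on its level was not tested.

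Dkk3, listed with the extracellular inhibitors, rose from 0.994 ± 0.51 to 4.49 ± 2.51 CPM (FDR = 0.0323), with KO libraries at 7.38, 2.88 and 3.22 CPM. With WT libraries at 1.36, 0.410 and 1.22 CPM, it met the filter through the KO libraries, and its fold and call are conditional on that. Its log2 fold change was 2.21, and 1.65 without KO replicate 1 (FDR = 0.0388). By comparison, Kremen1, a receptor for Dickkopf proteins, had 58.3 ± 5.39 and 53.3 ± 4.78 CPM and was not called. Of 10 tested dishevelled genes and modulators, Csnk1g3 rose by 0.42 and Dvl2 fell by 0.51 on the log2 scale (FDR = 0.0317 and 0.0199). KO replicate 1 was the lowest library for Dvl2, whose log2 fold change without it was -0.49 (FDR = 0.038). All 12 listed genes of the destruction complex and beta-catenin degradation were tested. The QLF test called 0 higher and 0 lower, beside 11.6% and 7.27% of all tested genes. At an unadjusted p under 0.05 in that test there were 1 higher and 2 lower, beside 19.7% and 15.1% of all tested genes. DESeq2 called 0 of them higher and 2 lower, beside 14.3% and 10.3% of all tested genes. These 2 were Amer1 and Tnks2, whose QLF log2 fold changes were -0.48 (FDR = 0.0808) and -0.30 (FDR = 0.0877). Without KO replicate 1, the lowest library for both, they were -0.35 (FDR = 0.11) and -0.26 (FDR = 0.161). Tnks2 encodes a tankyrase, which marks Axin for degradation, and stood at 402.2 ± 38.9 CPM in WT cells and 326.2 ± 24.7 CPM in KO cells.

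Of the other 3 tested catenin and junction genes, the QLF test called 1 higher and DESeq2 called all 3, beside 11.6% and 14.3% of all tested genes. Ctnna1, which encodes alpha-catenin and links beta-catenin to actin, rose from 52.9 ± 3.53 to 108.2 ± 21.6 CPM (log2 fold change 1.03, FDR = 0.0056 in the QLF test), and without KO replicate 1 the log2 fold change was 0.90. Jup, which encodes the close homolog gamma-catenin, had 2.34, 1.64 and 2.43 CPM in WT and 16.2, 4.32 and 3.22 CPM in KO and was not called by the QLF test (log2 fold change 1.90, FDR = 0.0712). Ctnnd1, which encodes p120-catenin, had 12.9, 10.9 and 10.95 CPM in WT and 55.8, 15.9 and 19.4 CPM in KO (log2 fold change 1.40, FDR = 0.0719). DESeq2 called both higher, with an FDR of 0.00835 for Jup and 0.00591 for Ctnnd1. As with Fzd7 and Tcf7l2, KO replicate 1 was the highest library for both. Without it the log2 fold changes were 0.81 for Jup (FDR = 0.0937) and 0.60 for Ctnnd1 (FDR = 0.0424), so that Ctnnd1 passed the QLF test. The QLF test also called Jup without KO replicate 3 (FDR = 0.0458) and Ctnnd1 without KO replicate 2 (FDR = 0.0326). Per kilobase, Jup stood at 0.332 ± 0.067 CPM per kb in WT and 1.23 ± 1.12 in KO, far below Ctnnb1 in both groups.

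Tcf7 and Lef1, the main nuclear partners of beta-catenin in T cells, had lower means in KO cells that did not pass the QLF test. Of 15 tested nuclear factors and cofactors, 2 were called higher and 4 lower, beside 11.6% and 7.27% of all tested genes. Tcf7 had 982.6, 1009 and 1034 CPM in WT and 377.2, 831.9 and 481.9 CPM in KO. Every KO library lay below the WT libraries, but the KO libraries were widely spread, and the log2 fold change of -0.84 (SE 0.27) had an FDR of 0.0686 in the QLF test. Tcf7 was called lower by DESeq2 (FDR = 0.00415), and by the QLF test with library size alone (0.0429) and without KO replicate 2 (log2 fold change -1.22, 0.00348). Lef1 had 261.7, 264.7 and 274.1 CPM in WT and 148.7, 263.5 and 185.3 CPM in KO (log2 fold change -0.42, FDR = 0.169), and was called lower without KO replicate 2 (-0.67, FDR = 0.0124). KO replicate 1 was the lowest library for both genes. Without it the log2 fold changes were -0.63 for Tcf7 (FDR = 0.0701) and -0.27 for Lef1 (FDR = 0.254). Per kilobase the WT level of Tcf7 was 384 ± 9.79 and that of Lef1 30.4 ± 0.74 CPM per kb, above Tcf7l1 at 0.802 and Tcf7l2 at 0.102 CPM per kb. In KO cells Tcf7 stood at 215 ± 90.7 and Lef1 at 22.7 ± 6.67 CPM per kb, while Tcf7l1 (1.30 ± 0.38) and Tcf7l2 (0.988 ± 1.30) had libraries that overlapped.

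The genes called lower in the nuclear group were Nlk, a kinase that acts on TCF and LEF factors, Bcl9l and Pygo2, coactivators that bind beta-catenin or its partner, and Tle4, a Groucho corepressor. Nlk fell from 85.3 ± 5.40 to 55.9 ± 6.33 CPM (FDR = 0.0104), and Bcl9l, Pygo2 and Tle4 fell by 0.55, 0.43 and 0.42 on the log2 scale (FDR = 0.0448, 0.0323 and 0.0458). The log2 fold change of Nlk was -0.61, and -0.56 without KO replicate 1, its lowest library (FDR = 0.01285). The 2 called higher were Tle2, another Groucho gene (2.51 ± 0.46 to 6.21 ± 1.26 CPM, FDR = 0.0138), and Ctnnbip1, which encodes the beta-catenin inhibitor ICAT (1.77 ± 0.23 to 4.14 ± 1.38 CPM, FDR = 0.0315). Ctnnbip1 was not called without KO replicate 1, where its log2 fold change moved from 1.23 to 0.93 (FDR = 0.0561). Bcl9l and Tle4 were not called without KO replicate 1 either, at 0.0658 and 0.0734. Chd8, a chromatin remodeller that binds beta-catenin, stood at 475.7 ± 17.2 CPM in WT cells and 418.8 ± 69.3 CPM in KO cells and was not called (FDR = 0.354). Its log2 fold change was -0.18, and -0.087 without KO replicate 1, its lowest library.

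**Figure D5:**
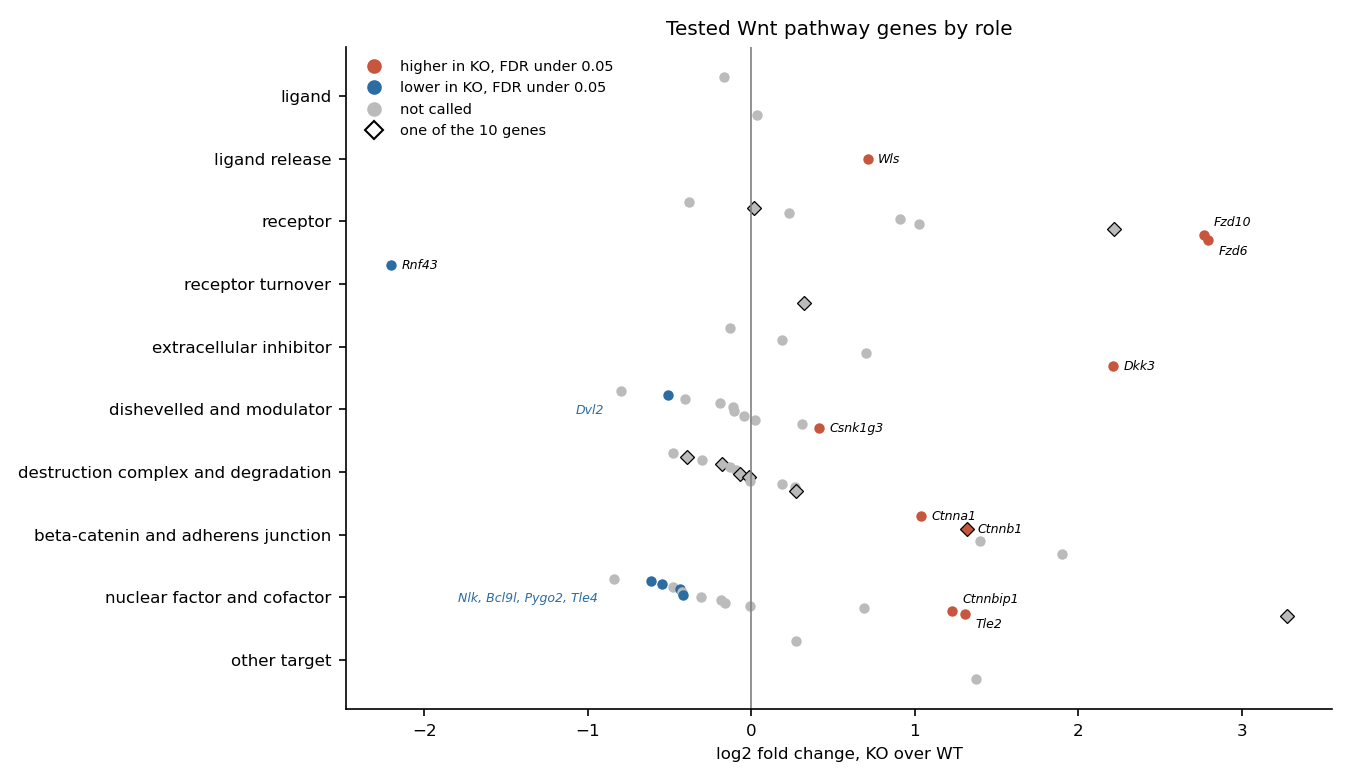
Log2 fold changes of the 60 tested Wnt pathway genes by role. The x axis is the log2 fold change of KO over WT, rows are roles with genes spread vertically for legibility, red and blue mark genes called higher and lower at an FDR under 0.05, grey marks genes not called, and diamonds are the 10 genes. Ctnnb1 at 1.32 is the 1 red diamond, and the 12 genes of the destruction complex row are all grey. Of all tested genes, 11.6% were called higher and 7.27% lower.

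A list of 12 genes known in other tissues as targets of beta-catenin and TCF was read beside Ctnnb1. Of these 7 were tested, and 0 were called higher by the QLF test (2 at an unadjusted p under 0.05, Myc and Ccnd1, and 0 by DESeq2), beside 11.6% of all tested genes, which is under 1 gene in 7. Rnf43 was the 1 gene called lower, beside 7.27% of all tested genes, and DESeq2 called Rnf43 and Tcf7. Among the 10 genes, Axin2 and Znrf3 belong to this list, with the log2 fold changes of -0.39 and 0.32 given above. Myc had 148.3, 139.9 and 176.2 CPM in WT and 186.2, 183.6 and 191.1 CPM in KO, groups that did not overlap, with an FDR of 0.107. Ccnd1 had 1.79, 2.54 and 3.54 CPM in WT and 12.5, 5.15 and 2.67 CPM in KO, with a log2 fold change of 1.37 (FDR = 0.127), and 0.55 without KO replicate 1 (FDR = 0.357). The other 5 targets (Nkd1, Lgr5, Notum, Sp5 and Tnfrsf19) were too low to test.

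Of the 60 tested Wnt genes 12 held a 3p word in the longest 3′ UTR, and of these 2, Csnk1g3 and Ctnnb1, were called higher and 0 lower. A 5p word was present in 11 of the 60, of which the same 2 were called higher and 1, Tle4, lower. Where none of the words was found (42 of the 60), 7 passed as higher and 5 as lower, among them Wls, Fzd6, Ctnna1 and Rnf43. Over all tested genes with an annotated 3′ UTR, 21.69% with a 3p word were called higher and 4.62% lower. The shares were 13.18% and 6.36% with a 5p word, and 10.23% and 7.66% with none of the words. The number of calls in the list depended on the libraries used. Without WT replicate 1 it held 5 higher and 2 lower, without WT replicate 2 it held 5 and 1, and without WT replicate 3 the count of lower genes was 1. Wls, Fzd6, Ctnnb1, Ctnna1 and Rnf43 were called in each of the 6 fits that left out a library, and each of the other 10 called genes was not called or not tested in at least 1 of them.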

How the data were processed

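The data were RNA-seq libraries of Treg cells from 3 WT and 3 KO mice. The authors aligned single-end reads of unstranded TruSeq libraries to mm10 with HISAT, counted them on genes with featureCounts and deposited raw counts for 24421 genes, without normalization. The annotation used for counting is not given in the sources used here. Because strand was ignored, reads of overlapping or antisense genes cannot be told apart. All 6 sample columns were used.

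The filter kept genes over 1 CPM in at least 3 libraries. Their TMM-normalized counts were compared in edgeR 4.0.16 (R 4.3.3) by the QLF test, with Benjamini-Hochberg adjustment over all 11658 genes. The filter, normalization and QLF test follow the study's methods. The study also ran a likelihood ratio test and an exact test, and its pathway analysis required all 3 to pass. A call here rests on the QLF test alone, which is looser. Requiring all 3 called 1240 genes higher and 738 lower. Levels are mean ± SD of CPM, and levels per kilobase use the union of GENCODE vM21 exons. The common biological coefficient of variation was 0.212. The steps were checked on simulated counts. The 10 genes, the Wnt and target lists and the marker lists were chosen with earlier results of these data known. Named genes were the 10, every called gene of the Wnt list, up to 2 uncalled genes of highest mean CPM per role, and the 5 genes closest in profile to Ctnnb1. Lef1, Amer1, Tcf7l1 and the untested targets were named after their values were seen. Alternatives were RLE size factors, library size alone, no filter, DESeq2 1.42.0, agreement of 3 edgeR tests, a robust fit, an FDR of 0.01, a block on replicate number and leaving out each library. Reads were not reanalysed.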

Additional observations from a re-analysis of the deposited data

How the results depend on the processing

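Ctnnb1 kept its direction and call under every alternative, and none of the 10 genes was called lower in any. Of the 10 genes, 3 were called higher by DESeq2, and 1 to 3 when 1 library was left out. In the Wnt list an FDR of 0.01 left 5 higher and 1 lower, and leaving out 1 library gave 5 to 10 higher and 1 to 7 lower. Among the targets, 2 were lower with DESeq2 and 2 with library size alone, and 1 to 3 when 1 library was left out. Counting only 8-base matches, the word with an A after it, left 2 genes with a 3p word and 3 with a 5p word. Searching every annotated 3′ UTR gave 4 genes with a 3p word and 8 with a 5p word, Tcf7l2 being the addition. The log2 fold changes nearest 0 changed sign. Gsk3b ranged from -0.1455 to 0.0607 when 1 library was left out. Lrp6 was -0.0662 with library size alone, -0.0070 without a filter, and -0.1158 to 0.0834 when 1 library was left out. The cause was not tested. Over all genes, the calls (higher and lower) were 666 and 356 without WT replicate 1, 483 and 208 without WT replicate 2, 555 and 235 without WT replicate 3, 874 and 637 without KO replicate 3, and 1061 and 545 with the block. Samples with the same replicate number did not deviate together (correlations 0.0731, -0.0124 and -0.188). With 3 libraries per group, these values cannot decide whether the numbers pair the mice, and the sample titles do not say. With the replicate block 2 targets were lower, Rnf43 and Tcf7 (FDR = 0.0415), Ctnnb1 stayed called, with an FDR of 0.00368, and Fzd7 and Tcf7l2 had log2 fold changes of 1.77 and 2.31. Depth limits Fzd10, with 5 to 8 counts in each WT library, and Fzd7 and Tcf7l2, with 9 to 28.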
